A study of Mus musculus with 12 samples.

Results

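The genes described here copy DNA or carry a cell through mitosis. Of 37 listed symbols, 36 were measured among 15019 genes, 13 of them with a role in DNA replication and 23 of 24 with a role in mitosis. A probe set (a group of short probes on the array that reads 1 transcript) was used only where it was annotated to a single symbol, and each gene was read from its probe set with the highest mean over the 12 arrays. The cyclin gene Ccnb1 had no such probe set and was not analysed here. All 36 measured members passed the filter on low values.

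The arrays came from dendritic cells (DCs) of mouse spleen, taken with beads against CD11c and then flow-sorted. Cells of 3 mice were pooled for each array, and there were 3 arrays in each of 4 groups. Alymphoplasia (aly) mice carry a mutated Map3k14, the gene of the kinase NIK, and the mice labelled wild type (WT) were their heterozygous littermates, so that these too carry 1 mutant copy. Mice of each genotype were either left untreated or given 25 micrograms of LPS, a ligand of Toll-like receptor 4, with 100 micrograms of an agonistic antibody against CD40 into the peritoneum, and DCs were taken 6 hours later. The labels give no age or sex. Values are deposited intensities on a linear scale, tests were run in limma on log2(value + 16), and called means an adjusted p under 0.05 by Benjamini and Hochberg's method over all 15019 genes. Behind each log2 change stands its standard error, and behind each group mean its SD (n = 3 arrays). Since each array holds DCs pooled from 3 mice, the p-values measure only the spread between such arrays.

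As background, the genes fall into waves of the cell cycle. E2F factors switch on the replication genes as a cell enters S phase: Cdc6 loads the Mcm2 to Mcm7 helicase ring on DNA, Mcm10 helps it start, Pcna holds the polymerases on the template, and Tyms, Rrm1 and Rrm2 supply deoxynucleotides. The mitosis genes come later, largely through promoters with a cell cycle homology region (CHR) and CCAAT boxes, which are read by the DREAM complex and by NF-Y. Splenic DCs descend from dividing precursors, part of the DCs in the spleen are themselves in cycle, and mature DCs are known for having left it. In a bulk sample fewer cycling cells and less RNA per cycling cell cannot be told apart.

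The promoters of the members carried these letters. RefSeq windows of 300 bases (build GRCm38.p6, 250 bases before the start of the gene and 50 after) were found for 32 of the 37 listed genes, and none was found for Mcm4, Ccna2, Aurkb, Kif20a and Tpx2. The E2F motif was searched as TTCCCGC, TTTGGCGC or TTTCGCGC, the CHR as TTTGAA, the CCAAT box as CCAAT and the SP1 box as GGGCGG, each on both strands. An E2F motif lay in 6 of 12 replication promoters (50%), in 1 of 20 mitosis promoters (5%) and in 5.4% of all 27025 promoter windows. The CHR showed the opposite split, with 15 of 20 mitosis promoters (75%), 1 of 12 replication promoters (8.33%) and 18.1% of all windows. CCAAT boxes were common in both classes (9 of 12 and 17 of 20, against 37.9% of all windows), and so were SP1 boxes (9 of 12 and 16 of 20, against 35.9%). Among the 57 CCAAT matches of the members, 1 overlapped an E2F match and 1 of the 21 CHR matches overlapped a CCAAT box. A match is a description of the letters and not of a bound site.

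Stretches of 6 of these promoters, chosen for their matches and ending at the last base before the start of the gene, show how the motifs lie. In all of them capitals mark each match to the E2F motif, to the CHR (TTTGAA, or TTCAAA on the other strand) and to the CCAAT box (CCAAT, or ATTGG on the other strand). The replication genes are Cdc6 (chr11:98908001-98908150, plus strand), Mcm5 (chr8:75109349-75109508, plus strand) and Mcm6 (chr1:128359706-128359825, minus strand). Their first capitals are E2F matches, and CCAAT boxes follow in Mcm5 and Mcm6.
Cdc6: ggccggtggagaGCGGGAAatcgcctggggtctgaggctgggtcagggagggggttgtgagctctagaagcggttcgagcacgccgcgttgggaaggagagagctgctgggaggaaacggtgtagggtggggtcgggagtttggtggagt
Mcm5: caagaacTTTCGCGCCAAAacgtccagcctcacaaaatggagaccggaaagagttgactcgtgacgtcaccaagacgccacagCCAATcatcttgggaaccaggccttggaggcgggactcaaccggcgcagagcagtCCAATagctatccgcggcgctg
Mcm6: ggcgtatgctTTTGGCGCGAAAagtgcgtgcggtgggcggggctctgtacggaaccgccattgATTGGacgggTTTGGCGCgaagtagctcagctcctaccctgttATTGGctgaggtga
The mitosis genes are Cdk1 (chr10:69352913-69353052, minus strand), Cdc20 (chr4:118437344-118437423, minus strand) and Kif11 (chr19:37376302-37376381, plus strand). Each holds a CHR near the start of the gene, and Cdk1 is also the 1 mitosis gene with an E2F match, its first capitals.
Cdk1: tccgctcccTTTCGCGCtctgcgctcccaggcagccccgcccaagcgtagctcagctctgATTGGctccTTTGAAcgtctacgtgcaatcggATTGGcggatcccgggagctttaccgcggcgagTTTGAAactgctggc
Cdc20: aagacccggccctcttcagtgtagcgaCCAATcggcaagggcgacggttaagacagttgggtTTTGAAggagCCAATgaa
Kif11: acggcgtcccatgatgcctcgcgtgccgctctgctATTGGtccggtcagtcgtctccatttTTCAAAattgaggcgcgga

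The array of treated aly replicate 1 stood apart from the others. Its log2 ratio of 3' to 5' control signals for Actb and Gapdh, a measure of RNA breakdown, was 5.66 (1.37 to 3.11 on the other 11 arrays). Its hybridisation controls averaged 32700 (2980 to 7800), and rank correlations with the rest reached at most 0.665, whereas each other array reached at least 0.807 with 1 of the rest. The ratio also differed by genotype, with a mean of 1.57 ± 0.185 on WT and 3.07 ± 1.31 on aly arrays (mean ± SD, n = 6 each). Intensities of the poly-A spike-ins divided the arrays too, into all replicates 1 (3.25 to 23.7) and all replicates 2 and 3 (54.9 to 533), a division that the labels do not describe. Results that rest on the treated aly group are therefore given with and without replicate 1.

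In WT DCs the proliferation genes were lower after 6 hours of LPS and anti-CD40. Of the 36 members 34 had a lower mean in treated WT DCs, 12 were called lower (5 replication and 7 mitosis genes) and 0 higher, where 4.75% of all genes were called lower and 9.71% were called in either direction. The median log2 change was -1.16 over the members, -1.27 over the replication genes and -1.13 over the mitosis genes, against -0.12 over all genes. The 3 treated arrays all read below the 3 untreated arrays for 28 members (10 replication and 18 mitosis genes), a pattern seen in 22.1% of all genes. Ccne1 and Tpx2 were the only members to run the other way, and neither was called. Each had 3 treated arrays above the untreated ones, as had 2154 of all 15019 genes. The replication and the mitosis genes thus had like medians, and a difference between the classes was not tested.

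**Figure D1:**
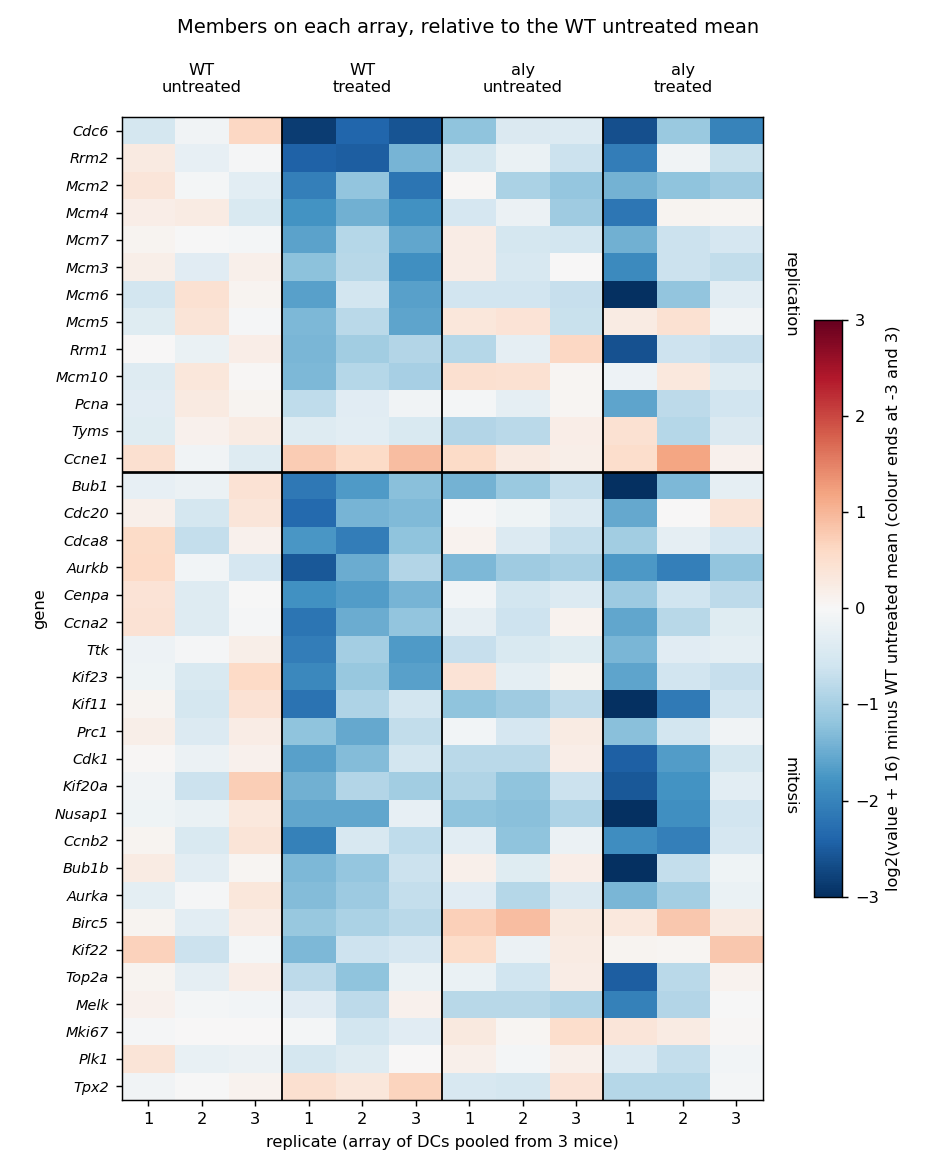
Heat map of the 36 measured members (one line each, replication genes above the thick line and mitosis genes below it) on the 12 arrays, coloured by log2(value + 16) minus the mean of the WT untreated arrays. Blue fills most of the treated WT columns, treated aly replicate 1 is the darkest of the treated aly columns, and Ccne1 and Tpx2 read above 0 on all 3 treated WT arrays.

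The class medians of single arrays showed the same division. Relative to the WT untreated mean, the replication genes had medians of -1.38, -0.85 and -1.56 log2 units on the 3 treated WT arrays, and 0.01, -0.02 and 0.04 on the untreated ones. The mitosis genes had medians of -1.57, -1.14 and -0.73 on treated and 0.09, -0.32 and 0.17 on untreated WT arrays. No treated WT array reached the range of the untreated ones in either class. Between arrays of the same replicate number 34, 33 and 32 of the 36 members were lower in the treated WT array.

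**Figure D2:**
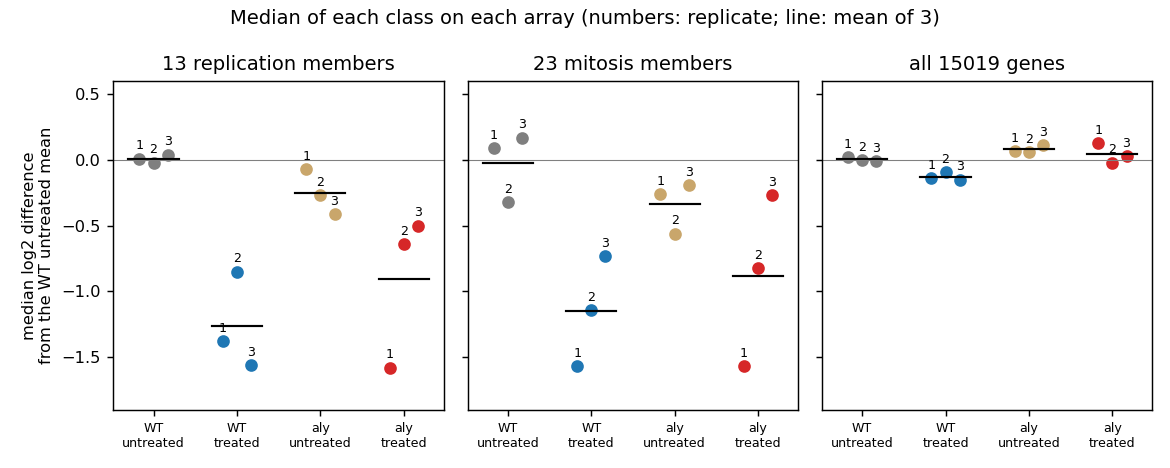
Median log2 difference from the WT untreated mean on each array, for the 13 replication members, the 23 mitosis members and all 15019 genes; each point is 1 array with its replicate number and the line is the mean of 3 arrays. Treated WT arrays lie between -1.56 and -0.85 for replication genes, and treated aly replicate 1 lies at -1.58, far from replicates 2 and 3 at -0.64 and -0.50.

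Among the replication genes the origin licensing factor Cdc6 changed most. Its intensities were 200, 274 and 464 on the untreated and 27.3, 43.3 and 35.3 on the treated WT arrays. All treated values were thus below the lowest untreated one. The log2 change was -2.61 ± 0.44 (6.11-fold lower, adjusted p = 0.0011), and the call held when any single array was left out (adjusted p of at most 0.012).

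The helicase subunits Mcm2, Mcm4 and Mcm7 were called lower. Mcm2 read 656, 488 and 405 on untreated and 110.1, 214 and 98 on treated WT arrays, a change of -1.81 ± 0.40 (adjusted p = 0.0096). Mcm4 read 1391, 1434 and 869 before and 335, 431 and 329 after treatment (-1.69 ± 0.51, adjusted p = 0.049). Mcm7, whose untreated values lay close together at 3566, 3320.3 and 3235, read 1096, 1858 and 1133 after treatment (-1.34 ± 0.38, adjusted p = 0.036). In all 3 genes the treated and untreated arrays did not overlap. The other subunits had changes of -1.31 ± 0.41 (Mcm3, adjusted p = 0.058), -1.24 ± 0.39 (Mcm5, adjusted p = 0.058) and -1.27 ± 0.61 (Mcm6, adjusted p = 0.22), none of them called although their arrays did not overlap either. Mcm10, the initiation factor, had -1.06 ± 0.35 (adjusted p = 0.072).

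Of the nucleotide enzymes Rrm2 was called lower, the small subunit of ribonucleotide reductase whose amount follows S phase. Rrm2 read 2654, 1867 and 2152 on untreated and 396, 385 and 821 on treated WT arrays, a change of -2.10 ± 0.47 (4.29-fold lower, adjusted p = 0.0094). Replicate 3 was the highest of the treated arrays and was still below each untreated one. The large subunit Rrm1 had -1.10 ± 0.50 (adjusted p = 0.2) without overlap between the arrays. Thymidylate synthase, Tyms, read 40.5 ± 11.9 and 26.5 ± 2.1 in untreated and treated WT DCs, and its change of -0.39 ± 0.41 was not called (95% interval -1.26 to 0.48). The polymerase clamp Pcna read 2880 ± 596 and 2190 ± 498, with an uncalled change of -0.40 ± 0.37 (95% interval -1.18 to 0.38). Cyclin E1, Ccne1, which acts with Cdk2 at S phase entry, had higher means after treatment (368 ± 122 against 612 ± 74, 0.75 ± 0.37, adjusted p = 0.24).

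Cyclin A2 and Cdc20 were called lower among the genes that drive entry into and exit from mitosis. Ccna2, the cyclin of S phase and G2, read 1063, 600.2 and 762 on untreated and 161, 268 and 340.1 on treated WT arrays (-1.62 ± 0.41, adjusted p = 0.021). Cdc20, the activator of the anaphase-promoting complex, read 1141, 699 and 1324 and 191, 380.5 and 399.9 (-1.67 ± 0.48, adjusted p = 0.036). Neither gene had a treated array within the untreated range. Cdk1, the mitotic kinase, had -1.15 ± 0.47 (adjusted p = 0.15) and its partner Ccnb2 -1.08 ± 0.50 (adjusted p = 0.2), both uncalled and both without overlap. The Polo kinase Plk1 had -0.29 ± 0.34 with overlapping arrays, and its 95% interval ran from -1.02 to 0.44.

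In the chromosomal passenger complex, which corrects the attachment of chromosomes to the spindle, the kinase Aurkb and the subunit Cdca8 were called lower. Aurkb read 488, 300.2 and 221 on untreated and 41.8, 103 and 166 on treated WT arrays (-1.64 ± 0.44, adjusted p = 0.028), and Cdca8 read 2046, 833 and 1507 and 400.4, 314 and 583 (-1.67 ± 0.41, adjusted p = 0.017). Birc5 (survivin), another subunit, read 391, 290.5 and 432 and 158, 182 and 201, and its change of -0.97 ± 0.34 was not called (adjusted p = 0.09). The related kinase Aurka, which acts at the spindle poles, had -1.04 ± 0.38 (adjusted p = 0.1), and its activator Tpx2 had 0.50 ± 0.37 (adjusted p = 0.48).

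At the kinetochore, Cenpa and Ttk were called lower. Cenpa, the histone H3 variant of centromeres, read 709.8, 405 and 529 on untreated and 139.6, 156 and 193 on treated WT arrays (-1.63 ± 0.34, adjusted p = 0.0069). Its call held when any single array was left out (adjusted p of at most 0.049), but its 2 dimmer probe sets had changes of -0.13 and 0.24. Ttk, the checkpoint kinase also called Mps1, read 60.9, 67.9 and 80.3 and 4.3, 26.4 and 10.3 (-1.59 ± 0.39, adjusted p = 0.017). Its untreated arrays lay between 60.9 and 80.3 and none of the treated ones above 26.4. The checkpoint genes Bub1 and Bub1b had -1.70 ± 0.70 (adjusted p = 0.15) and -1.05 ± 0.73 (adjusted p = 0.45), both without overlap and both with large standard errors.

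Of the 4 kinesins only Kif23, a motor of the central spindle, was called lower. It read 589, 466 and 992 on untreated and 157, 286 and 199.6 on treated WT arrays (-1.57 ± 0.41, adjusted p = 0.023). Kif11, which pushes the spindle poles apart, had -1.22 ± 0.56, Kif20a -1.13 ± 0.50 and the chromosome arm motor Kif22 -0.82 ± 0.42 (adjusted p = 0.2, 0.19 and 0.26). The microtubule bundlers Prc1 and Nusap1 had -1.16 ± 0.39 and -1.13 ± 0.69 (adjusted p = 0.076 and 0.37).

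Mki67, the gene of the proliferation antigen Ki-67, was not called. It read 2003, 2045 and 2062 on untreated and 1948, 1381 and 1603 on treated WT arrays. The treated arrays were all lower, by a log2 change of -0.32 ± 0.32 (95% interval -1.01 to 0.36, adjusted p = 0.64). Topoisomerase Top2a, which untangles sister DNA, had -0.73 ± 0.53 (adjusted p = 0.47) with overlapping arrays. The kinase Melk had -0.33 ± 0.44 (adjusted p = 0.75), also with overlap.

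**Figure D3:**
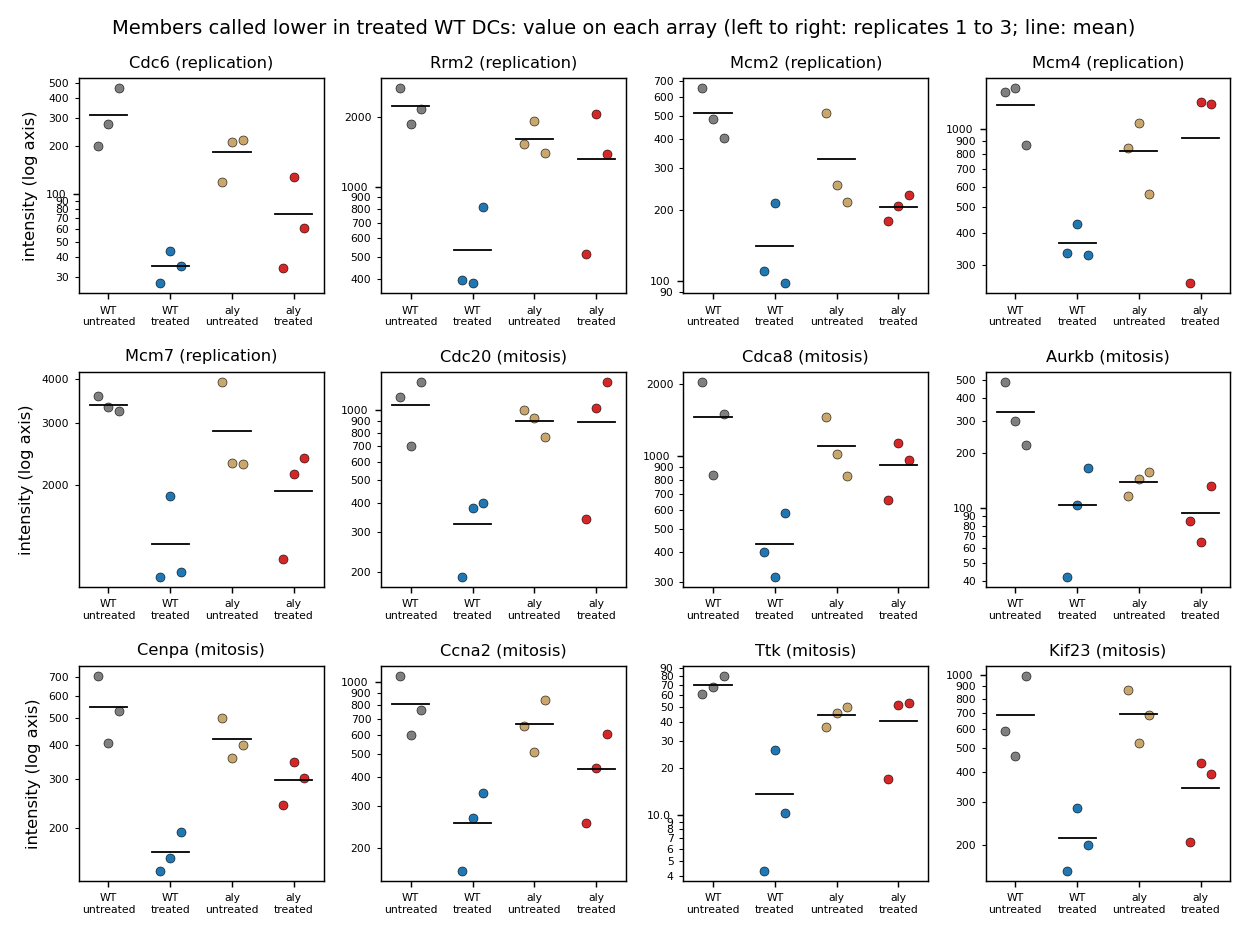
Deposited intensity of the 12 members called lower in treated WT DCs on each array (log axes, 1 point per array in the order of replicates 1 to 3, line at the mean of 3), in the 4 groups. In each panel all 3 treated WT arrays lie below all 3 untreated WT arrays, as for Cdc6 with 27.3 to 43.3 against 200 to 464.

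Most of the 12 calls in WT rested on single arrays. Cdc6 and Cenpa kept theirs on leaving out each of the 12 arrays in turn. The 12 became 2 without treated WT replicate 1, 3 without untreated WT replicate 1 and 5 without untreated WT replicate 3. They became 6 without treated WT replicate 3 and 6 on replicates 2 and 3 alone. The share of all genes called lower fell as well, from 4.75% to 1.22%, 1.45%, 1.45%, 1.1% and 3.51% in the same order. Treated aly replicate 1 belongs to neither group compared but adds to the shared spread and to the filter (14595 genes were tested without it). Without that array the 12 calls became 23 (10 replication and 13 mitosis genes), where 11.7% of all genes were called lower and 19.8% in either direction. The members with a further probe set of their own (27 genes, 49 probe sets) had 37 of those 49 lower in treated WT DCs, and 8 opposite in sign to the one used. For 18 of the 27 genes each further probe set was lower. Averaged over probe sets, the median change in WT was -0.85 for the replication and -0.96 for the mitosis genes. In that setting 8 members were called lower, as were 4.78% of all genes.

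The single calls that were lost can be named by array. Without untreated WT replicate 1 the calls of Aurkb, Ccna2, Cdc20, Cdca8, Kif23, Mcm2, Mcm4, Mcm7 and Rrm2 were lost, and without treated WT replicate 1 those of the same genes and of Ttk. Without untreated WT replicate 3 the calls of Ccna2, Cdc20, Cdca8, Kif23, Mcm4, Mcm7 and Ttk were lost, and without treated WT replicate 3 those of Cdc20, Kif23, Mcm2, Mcm4, Mcm7 and Ttk. Without untreated WT replicate 2 Aurkb, Mcm4 and Mcm7 lost theirs, without treated WT replicate 2 Cdca8 and Mcm4, and without any 1 untreated aly array Mcm4. Mcm4 was the least stable, with a call on 3 of the 12 omissions and an adjusted p between 0.0017 and 0.17. Rrm2 was called on 10 of 12 omissions, with an adjusted p between 0.00048 and 0.054. The log2 changes themselves kept their sign in these 12 genes under each setting tried, from -3.05 to -1.87 for Cdc6 and from -1.82 to -0.51 for Cenpa, the smallest of these being the mean over the probe sets of Cenpa.

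Markers of DC subsets and of other cells also differed between the groups. All 9 pan-DC markers, among them Itgax (CD11c, 1710 to 3390 on untreated WT arrays) and Flt3 (854 to 1450), had lower means in treated WT DCs (median -0.63), with Ciita the 1 called lower. Their summed intensity was 48200 to 54800 on untreated and 30800 to 41200 on treated WT arrays. The 8 plasmacytoid DC markers summed to 1190 to 1300 and 3860 to 5510, with Spib, Bst2 and Tcf4 called higher and Ccr9 lower. Spib alone read 182 to 421 and 1710 to 3070, and Bst2 174 to 227 and 1000 to 1620, whereas Siglech read 22.1 to 33.5 and 2.8 to 26.7. By their means 5 of the 8 were higher and 3 lower (median 0.32). Of 9 measured markers of CD8 alpha positive DCs 5 were called lower and 1 higher in treated WT DCs (median -2.60), and their summed intensity was 11300 to 21100 on untreated and 6590 to 9730 on treated WT arrays. The summed T cell markers (5 of 8 measured, with Il7r the 1 called higher) were 289 to 529 and 1930 to 4380. Il7r alone read 186 to 330 and 1820 to 4320, whereas Cd3g read 2.4 to 12.2 and 1.2 to 12.2. By their means 3 of the 5 were higher and 2 lower. The summed erythroid markers (8 of 12 measured) were 997 to 1750 and 301 to 769, of which Tfrc alone read 785 to 1680 and 180 to 624. By their means 4 of these 8 were higher and 4 lower after treatment (median 0.09), and 0 were called. None of the 89 measured markers was listed at 0 at the low end of any group. The part of these cells in the change of the proliferation genes was not tested.

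In aly DCs no member was called with treatment. Of the 36 members 32 had a lower mean after treatment, 0 were called by limma in either direction, and 0.486% of all genes were called. At an unadjusted p under 0.05, 7 members were lower, against 1100 of all 15019 genes. The median log2 change was -0.53 (-0.54 for replication and -0.53 for mitosis genes, -0.08 for all genes). The treated arrays lay below the untreated ones without overlap for 5 members (Mcm3, Pcna, Cenpa, Kif23 and Plk1), against 8.56% of all genes.

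The size of the change in aly depended on treated replicate 1. The replication genes had medians of -1.58, -0.64 and -0.50 log2 units on treated aly replicates 1 to 3 relative to the WT untreated mean, and the mitosis genes -1.57, -0.82 and -0.27. Untreated aly arrays had -0.07, -0.27 and -0.41 for replication and -0.26, -0.56 and -0.19 for mitosis genes. Without treated replicate 1 the median change in aly was -0.19 (-0.28 and -0.16 for the classes), 27 members were lower and 0 were called. Within replicate 1 the median change of the replication genes was -1.52 in aly and -1.39 in WT, and within replicates 2 and 3 it was -0.12 and -1.25. For the mitosis genes these values were -1.19 and -1.65 within replicate 1, and -0.17 and -0.91 within replicates 2 and 3.

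Cdc6 read 118, 213 and 217 on untreated and 34.3, 127 and 61.2 on treated aly arrays, a change of -1.23 ± 0.44 (adjusted p = 0.31), and -0.88 without replicate 1. Mcm4 read 842, 1057 and 562 before and 255, 1274 and 1245 after treatment, so that replicate 1 was the lowest and replicates 2 and 3 the highest of the aly arrays. Rrm2 read 1529.8, 1909.9 and 1397 on untreated and 512, 2048 and 1388 on treated aly arrays, with treated replicate 1 again the lowest. Its change was -0.49 ± 0.47, and 0.08 without replicate 1. Cdc20 read 1006, 924 and 768 and 340.3, 1019 and 1326, a change of -0.20 ± 0.48, and 0.37 without replicate 1. Bub1 was at 131, 166 and 224 and 4, 139.8 and 312, with its lowest value on the array of low RNA quality.

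Mcm3, Kif23 and Pcna were among the genes for which every treated aly array lay below every untreated one. Mcm3 read 854, 521 and 734 on untreated and 183, 462 and 427 on treated aly arrays (-1.02 ± 0.41, adjusted p = 0.35). Kif23 read 863, 526 and 686 and 206, 434 and 394 (-1.01 ± 0.41, adjusted p = 0.34), and Pcna 2712, 2370.2 and 2968 and 938, 1629 and 1899.7 (-0.90 ± 0.37, adjusted p = 0.35). None of them passed the test.

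**Figure D4:**
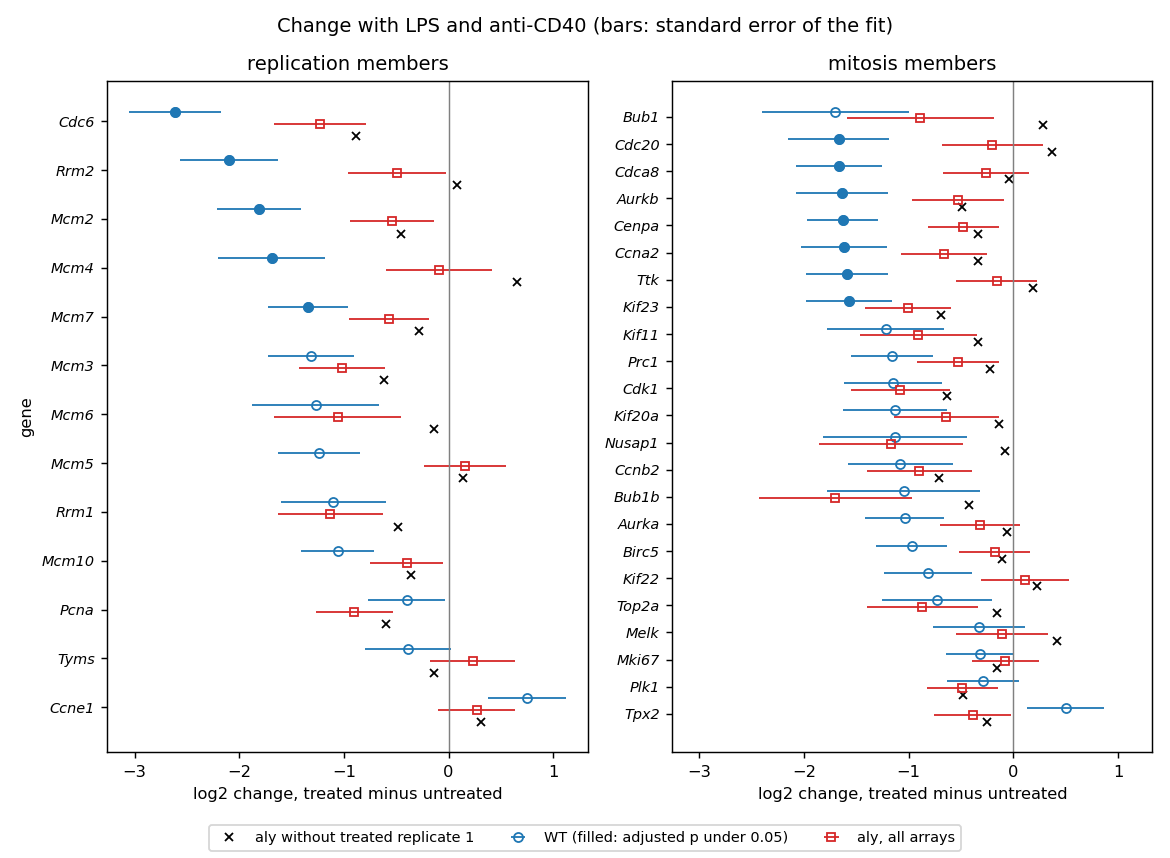
Log2 change with LPS and anti-CD40 for each member in WT (circles, filled where the adjusted p was under 0.05) and in aly (squares), with bars for the standard error of the fit; crosses give the aly change without treated replicate 1. Cdc6 lies at -2.61 in WT and at -1.23 in aly, and most crosses lie nearer to 0 than the squares.

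Untreated DCs of the genotypes did not differ by a call in any member. Of the 36 members 27 had a lower mean in untreated aly than in untreated WT DCs, 0 were called by limma, and 0.553% of all genes were called. At an unadjusted p under 0.05, 1 member was lower, against 546 of all 15019 genes. The median log2 difference was -0.32 (-0.29 and -0.34 for replication and mitosis genes), whereas that over all genes was 0.10. The aly arrays lay below the WT arrays without overlap for 9 members, of which 8 were mitosis genes, against 9.86% of all genes. The member with the smallest p was Aurkb, at 488, 300.2 and 221 on WT and 116, 143 and 156 on aly arrays (-1.13 ± 0.44, adjusted p = 0.36). Nusap1, a bundler of spindle microtubules, read 689, 654 and 947 and 318, 306 and 389 (-1.13 ± 0.69, 95% interval -2.59 to 0.34). Bub1 read 315, 335 and 513 and 131, 166 and 224 (-1.09 ± 0.70, 95% interval -2.57 to 0.40). Kif11, Kif20a, Melk, Aurka, Ttk and Mcm6 were the other members lower without overlap, with differences from -1.01 (Kif11) to -0.50 (Ttk). Birc5 and Mki67 lay higher in aly on all 3 arrays, with 0.65 ± 0.34 and 0.29 ± 0.32, a pattern seen in 1933 of all 15019 genes. With each array centred on its median, the median over all genes was -0.12 and that of the members -0.54, and with quantile normalization these were 0.01 and -0.30. With the 3' over 5' ratio as a covariate the class medians were 0.03 and -0.04, against 0.09 over all genes. That ratio was 1.40 to 1.72 on untreated WT and 2.33 to 2.70 on untreated aly arrays. This setting therefore cannot tell RNA quality and genotype apart. With the replicate number as a block 0 members were called and 0.886% of all genes.

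After treatment 2 of the 36 members were called higher in aly than in WT DCs, Mcm5 and Birc5, and 0 lower. Of all 15019 genes 411 were called higher and 396 lower, 5.37% in either direction. The share of members called was thus near that of all genes. Mcm5 read 710.3, 1036 and 598 on treated WT and 2163, 2509 and 1679.5 on treated aly arrays, a difference of 1.44 ± 0.39 (2.71-fold higher, adjusted p = 0.045). Birc5 read 158, 182 and 201 and 457, 658 and 442 (1.43 ± 0.34, 2.69-fold higher, adjusted p = 0.026). In both genes each treated aly array, replicate 1 included, was above each treated WT array. The mean of Mcm5 was 1860 ± 496 in untreated WT, 782 ± 228 in treated WT, 1970 ± 715 in untreated aly and 2120 ± 417 in treated aly DCs. The mean of Birc5 was 371 ± 72.8, 181 ± 21.4, 592 ± 131 and 519 ± 121 in the same order, so that the treated WT group was the lowest of the 4 for both genes on the probe sets used.

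Neither call was stable. Birc5 lost it without any 1 of the treated WT replicates 1, 2 and 3 or of treated aly replicate 2 (adjusted p of 0.016 to 0.11 over the 12 omissions). Mcm5 lost it on 9 omissions, which were each of the untreated and treated WT arrays, untreated aly replicates 1 and 2 and treated aly replicate 2 (0.033 to 0.22). The mean over all Mcm5 probe sets gave 0.26. With each array centred on its median the differences were 1.10 and 1.09 and neither was called (adjusted p = 0.14 and 0.11).

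Over the whole group the direction was uneven. Of the 36 members 20 had a higher mean in treated aly DCs. By limma 9 were higher at an unadjusted p under 0.05, as were 1954 of all 15019 genes. The median difference was 0.20, near the 0.19 of all genes. It was 0.48 for the replication and -0.02 for the mitosis genes, and 1.04 and 1.09 with the 3' over 5' ratio as a covariate (0.09 over all genes). That ratio was 1.37 to 1.83 on treated WT and 2.17 to 5.66 on treated aly arrays. The covariate thus cannot tell RNA quality and genotype apart here either. With median centring the medians of members and of all genes turned to -0.14 and -0.15, and with quantile normalization they were 0.11 and 0.00. The aly arrays lay above the WT arrays without overlap for 7 members (Mcm5, Mcm10, Birc5, Cdca8, Cenpa, Kif22 and Mki67), against 14.1% of all genes. Cdca8 read 400.4, 314 and 583 and 658, 1138 and 967 (1.07 ± 0.41, adjusted p = 0.13). Kif22 had 1.13 ± 0.42 and Mcm10 0.99 ± 0.35 (adjusted p = 0.12 and 0.11). Tpx2 alone lay lower in aly without overlap, a pattern seen in 1517 of all 15019 genes. It read 398, 359 and 454 on treated WT and 146, 148 and 268 on treated aly arrays (-1.09 ± 0.37, adjusted p = 0.094). Averaged over probe sets Tpx2 had 0.12, the opposite sign, and Kif22, Cdca8, Mcm10 and Cenpa had 0.10, 0.40, 0.48 and 0.21, none of them called. Birc5 and Mki67 had 1.43 and 0.53 in that setting.

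Without treated aly replicate 1, 6 members were called higher in treated aly DCs, and 7.34% of all genes were called. They were Mcm4 (1.75 ± 0.36, adjusted p = 0.0096), Cdc20 (1.86 ± 0.39, 0.01), Rrm2 (1.72 ± 0.38, 0.014), Birc5 (1.51 ± 0.34, 0.016), Ttk (1.28 ± 0.35, 0.038) and Mcm5 (1.41 ± 0.41, 0.045). The median over the members was then 0.62, with 0.66 for the replication and 0.45 for the mitosis genes. On the remaining arrays Mcm4 read 1274 and 1245 in treated aly and 335, 431 and 329 in treated WT DCs. The values of the 2 aly arrays thus lay within the range of untreated WT DCs.

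These differences depended on the probe set. The second probe set of Mcm4 changed by -0.98 with treatment in WT and -0.96 in aly, and those of Rrm2 by -1.63 and -1.57 and by -2.22 and -1.23, on all arrays. Averaged over probe sets, the treated genotypes differed by 0.40 in Mcm4 and 0.25 in Rrm2 on all arrays, against 1.01 and 1.16 for the probe sets used, and neither was called. Averaged over probe sets and without treated aly replicate 1, Birc5 (1.51 ± 0.30, adjusted p = 0.012), Mcm4 (1.00 ± 0.26, 0.038) and Cdc20 (1.44 ± 0.38, 0.042) were called higher. Rrm2 (0.85 ± 0.36, adjusted p = 0.19), Ttk (0.97 ± 0.33, 0.11) and Mcm5 (0.43 ± 0.29, 0.45) were not.

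Whether the response itself differed between the genotypes was tested with the interaction, the change in aly minus the change in WT. It was called by limma for 0 of the 36 members and for 0.153% of all genes. At an unadjusted p under 0.05 it was positive for 9 members, against 537 of all 15019 genes. The term was positive, that is the change was less negative or more positive in aly, for 28 members, with a median of 0.62 (0.66 for replication and 0.56 for mitosis genes) against 0.04 for all genes. Averaged over probe sets the medians were smaller, 0.45 for replication and 0.28 for mitosis genes, against 0.06 for all genes. The smallest p belonged to Ttk (1.43 ± 0.55, 95% interval 0.26 to 2.60, adjusted p = 0.51), and Mcm5 had 1.40 ± 0.56 (adjusted p = 0.53). Averaged over probe sets Ttk had 0.85 and Mcm5 0.26. The largest terms were those of Rrm2 (1.61 ± 0.66, 0.22 to 3.01) and Mcm4 (1.60 ± 0.73, 0.06 to 3.14), with adjusted p of 0.55 and 0.61, and averaged over probe sets they were 0.89 and 0.81. Cdc6, the gene of the largest fall in WT, had 1.38 ± 0.62 (adjusted p = 0.61). Without treated aly replicate 1 the term was positive for 32 of the 36 members with a median of 0.96, and Mcm4 alone was called (2.34 ± 0.49, adjusted p = 0.035, against 0.767% of all genes). Averaged over probe sets without that array, the term of Mcm4 was 1.41 ± 0.35 and not called (adjusted p = 0.087).

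Red pulp macrophage, monocyte and erythroid markers differed by genotype beside these values. The summed intensity of 11 macrophage markers was 2410 to 15600 on untreated WT, 38900 to 61400 on untreated aly, 2360 to 13700 on treated WT and 27400 to 52900 on treated aly arrays, and 6 of the 11 were called higher in untreated and 5 in treated aly DCs. The 4 measured monocyte markers summed to 4520 to 9370 on untreated WT, 11200 to 17600 on untreated aly, 575 to 5000 on treated WT and 9930 to 15000 on treated aly arrays, with Fcgr1 called higher in untreated and Csf1r in treated aly DCs. Csf1r alone read 4220 to 8950, 10600 to 16800, 465 to 4260 and 9270 to 14000 in the same order. By their means 3 of the 4 were higher and 1 lower in untreated aly DCs, and 4 were higher in treated ones. Ccr2 read 204 to 381 on untreated WT and 145 to 272 on untreated aly arrays. The erythroid markers summed to 1420 to 3390 on untreated and 1250 to 4060 on treated aly arrays, with 1 and 2 of 8 called higher. Neutrophil markers summed to 15300 on treated aly replicate 1, the highest of the 12 arrays. Their part in the differences between genotypes was not tested.

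Other genes of the cell cycle were read in 6 lists, with 188 of 194 genes measured. In WT DCs the treatment lowered 7 of 41 genes of origin licensing and the replication fork and raised 0, with a list median of -0.87, where 4.75% of all genes were called lower and the median over all genes was -0.12. Pola1, the catalytic subunit of the primase-bound polymerase, fell from 409 ± 151 to 54.8 ± 17.3 (-2.55 ± 0.36, adjusted p = 0.00027), and the others were Prim1, Rpa1, Rpa2, Pole2, Cdt1 and Tipin. Of 19 genes of nucleotide supply 2 were lower, Tk1 (thymidine kinase, -2.36 ± 0.43) and Dctpp1 (-2.15 ± 0.39). Samhd1, which breaks deoxynucleotides down, was higher (1.44 ± 0.36, adjusted p = 0.02). Of 41 kinetochore and spindle genes 8 were lower and 0 higher (median -1.01), among them Hmmr (-2.18 ± 0.59), Mad2l1 (-1.71 ± 0.48) and Spc25 (-1.58 ± 0.39). Of 27 genes of condensin, cohesin and cytokinesis 7 were lower and 0 higher (median -1.15), among them Ncaph (-1.85 ± 0.52) and Ect2 (-1.75 ± 0.52).

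The regulators split in direction in WT DCs. Of 34 cyclins, kinases and transcription regulators 5 were lower and 1 higher (median -0.76). Ccne2, the second cyclin E, fell from 223 ± 76.8 to 30.8 ± 4.81 (-2.31 ± 0.38, adjusted p = 0.00097), whereas cyclin D2, Ccnd2, rose from 591 ± 84.3 to 9130 ± 2300 (3.89 ± 0.34, adjusted p = 3.8e-06). Of 26 cell cycle inhibitors and arrest genes 6 were higher and 1 lower, where 744 of all 15019 genes were called higher and 714 lower. The CDK inhibitor Cdkn1a (p21) rose from 119 ± 43.8 to 3460 ± 360 (4.73 ± 0.51, 26.6-fold, adjusted p = 2.2e-05), and Cdkn2b (p15) from 105 ± 59.2 to 3480 ± 542 (5.01 ± 0.45, adjusted p = 4.5e-06). The kinase Plk2 rose by 5.89 ± 0.54, the stress genes Gadd45b and Gadd45g by 3.40 ± 0.43 and 2.86 ± 0.39, and Mxd1, an antagonist of Myc, by 3.37 ± 0.52. Its relative Mxd4 had -1.93 ± 0.46.

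In aly DCs 0 genes of these lists were called lower by limma with treatment (33 at an unadjusted p under 0.05) and 4 were called higher, where 0.486% of all genes were called and 1100 of 15019 were lower at an unadjusted p under 0.05. The 4 were Cdkn2b (2.62 ± 0.45), Cdkn1a (2.61 ± 0.51), Gadd45b (2.39 ± 0.43) and Ccnd2 (1.68 ± 0.34), with adjusted p of 0.018, 0.031, 0.023 and 0.037. Tk1 and Pola1 had -1.64 ± 0.43 and -1.35 ± 0.36 in aly, with treated arrays below the untreated ones and adjusted p of 0.14 and 0.15. Between treated genotypes 6 of the 188 genes were called higher and 7 lower in aly, where 411 of all 15019 genes were called higher and 396 lower. The lower ones were 6 of 26 inhibitor genes and 1 of 27 genes of condensin, cohesin and cytokinesis. Among the 6 were Plk2 (-2.74 ± 0.54, adjusted p = 0.012), Cdkn2b (-2.18 ± 0.45, 0.013) and Gadd45g (-1.92 ± 0.39, 0.012). Incenp, which holds the chromosomal passenger complex of Aurkb, Birc5 and Cdca8 together, was higher in treated aly DCs (1.72 ± 0.41, adjusted p = 0.026), and so were Ncapg, E2f7, Tfdp2, Nme1 and Atic. The interaction was called by limma for 0 of the 188 genes (14 higher and 9 lower at an unadjusted p under 0.05, against 537 and 667 of all 15019 genes). Its largest term was that of Plk2 (-3.63 ± 0.77, adjusted p = 0.093).

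**Figure D5:**
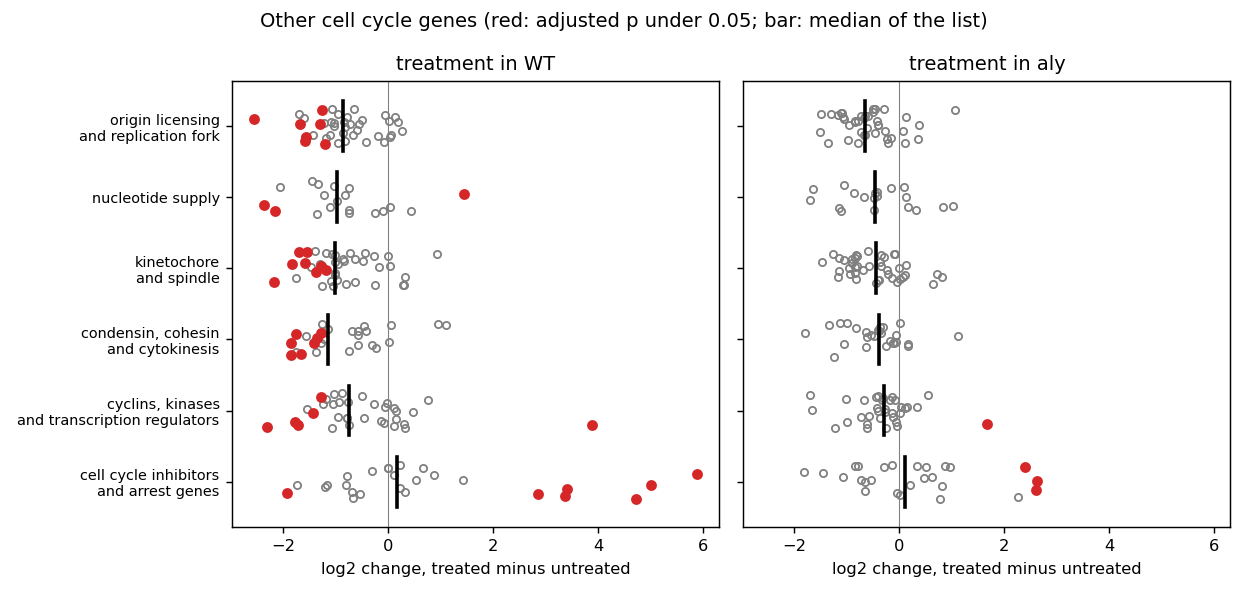
Log2 change with treatment of each gene in the 6 lists of other cell cycle genes, in WT and in aly DCs; red points had an adjusted p under 0.05 and black bars mark the median of a list. In WT the called points of the replication and mitosis lists lie below 0 except Samhd1 at 1.44, and Plk2 reaches 5.89 among the inhibitors.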

How the data were processed

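The deposited values are linear intensities of 45101 probe sets on 12 arrays. Each array had a 2% trimmed mean of 150.001, and column medians ran from 21.5 to 53.4. The software and any background subtraction were not given in the sources used here. RNA was amplified and labelled in a second in vitro transcription, per the labels' protocols. All columns were matched to samples by their labels (0 unmatched).

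Of the probe sets, 34945 carried 1 symbol in the platform annotation and were no controls (64), and 34205 exceeded the 40th percentile of the array in 3 or more of the 12. Each gene was read from its probe set with the highest mean of log2(value + 16), which left 15019 genes. Before the filter and this choice, 85 probe sets were annotated to a single member, and 36 of them were used. Several probe sets of a gene can disagree, and fold changes on the log2(value + 16) scale understate the change of genes with low values. Values were used as deposited, without further normalization. Limma 3.58.1, run under R 4.3.3 on tables read by data.table (version 1.17.8), was fitted to all 12 arrays with 1 mean per group (8 residual and 8.04 prior degrees of freedom) for 5 contrasts: treatment in WT, treatment in aly, genotype (aly minus WT) in untreated and in treated DCs, and the interaction. Benjamini-Hochberg adjustment ran over all genes of a contrast. Standard errors had a median of 0.43 log2 units, and of 0.61 in the interaction.

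The members and lists were chosen with earlier results of these data known, so lists are described by counts and medians beside those of all genes, with no test. Members called in a contrast and the families described by role were named in full, and of each list the called genes or up to 3 with the smallest p. Promoter windows came from RefSeq and were searched in Python 3.11.15 with pandas 2.3.3. Alternatives were the offset, scaling, filter, choice of probe set, arrays fitted, array weights, replicate block, spike-in division (replicates 1 against 2 and 3), RNA quality covariate and leaving out each of 12 arrays. The labels do not say that a replicate number marks a shared batch, and the deviations of same-numbered arrays correlated at -0.03 to 0.30 over 18 pairs, 8 of them above 0.1. All 3 pairs were above 0.1 (0.16 to 0.23) between the untreated genotypes, and in no other pair of groups. The main fit did not pair the arrays, and the replicate block was run only as an alternative.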

Additional observations from a re-analysis of the deposited data

How the results depend on the processing

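The count of members called lower with treatment in WT was 12, where 4.75% of all genes were called lower. It was 6 with an offset of 1 (2.34%), 6 on replicates 2 and 3 alone (3.51%) and 8 with the mean of the probe sets (4.78%). In a fit of the groups compared it was 23 (11.3%). Array weights gave 24 (13.4%) and the 3' over 5' ratio as a covariate 25 (10.9%). Leaving out 1 array gave 2 to 23 (1.1% to 11.7%). The count between treated genotypes was 2, where 5.37% of all genes were called in either direction. It was 0 with an offset of 1 (1.54%) and 0 in a fit of the groups compared (0.18%). It was 1 with the mean of the probe sets (4.87%) and 1 with median centring (Tpx2, lower, 4.69%). Array weights gave 11 (19.2%), the covariate 6 (3.64%) and leaving out 1 array 0 to 6 (0.475% to 10.4%). The interaction gave 0, where 0.153% of all genes were called. It gave 5 with array weights (2.4%), 1 with the covariate (0.686%) and 0 to 1 on leaving out 1 array (0.00676% to 0.767%). Treatment in aly and genotype in untreated DCs gave 0 under every setting run. With the covariate Bub1 and Bub1b were called higher in treated aly DCs, by 2.09 and 1.83, against uncalled values of -0.27 and -0.65 without it; the cause was not tested. With the replicate block the counts were 14 for treatment in WT (11.1% of all genes called), 2 between treated genotypes (7.38%) and 0 elsewhere. With the spike-in division as a block the counts were 12 (11.7%), 2 (7.88%) and 0 elsewhere. One setting was chosen after seeing the data, the mean of the probe sets without treated aly replicate 1. Its counts were 18 (18.7%), 3 (5.96%) and 0 elsewhere. A filter at the 60th percentile left 35 members, of which 15 were called in WT, as were 17.1% of all genes. Among all genes called, the higher ones made up 51% in WT (61.7% with median centring, 59.2% with quantile normalization) and 50.9% between treated genotypes (17.2% and 44.5%). The number of genes called in the interaction was 23, and 0 of them were higher. Values of single members not called in either setting changed sign 1 time for treatment in WT, 52 times for treatment in aly, 47 for genotype untreated, 64 for genotype treated and 57 for the interaction, out of 935 to 971 values each, and these were not counted as reversals. A fit of only the groups compared cannot be made for the interaction. With 3 arrays a group, the number of arrays limits the precision.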

Other observations

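Untreated DCs of the genotypes also differed little in the other cell cycle genes. Of the 188 genes in the 6 lists 0 were called by limma between untreated aly and WT DCs, with 18 lower and 3 higher in aly at an unadjusted p under 0.05. The list medians were -0.19 for origin licensing and the replication fork, -0.20 for nucleotide supply, -0.22 for the kinetochore and spindle, -0.22 for condensin, cohesin and cytokinesis, 0.14 for cyclins, kinases and transcription regulators and -0.19 for inhibitors, against 0.10 over all genes. With treatment in aly the same lists had medians of -0.65, -0.47, -0.45, -0.39, -0.29 and 0.11, against -0.08 over all genes.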
